A study of Drosophila melanogaster with 3 samples.

Results

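Of the 30000 calls in the pooled peak list of a ChIP-seq experiment on CG12219-GFP, 13.96% are described here: the calls directly under the peaks that passed the irreproducible discovery rate (IDR) step, and as many in number as those peaks. They were chosen by their signal value, after the pooled list had been sorted by the signal that the authors gave each call. The IDR peaks are the highest-signal pooled calls without a gap, so the calls described here, called members, begin where that list ends. The next ranks are a further band of the same size directly under the members. Chromatin came from whole Drosophila melanogaster embryos of 0 to 18 h, both sexes pooled, from 1 transgenic line that stably expresses CG12219 with GFP at its C-terminus, with 3 biological replicates and no second group. All values therefore average over every cell type and stage in that window. The labels call the samples input controls in a free-text line and immunoprecipitations elsewhere, and they are treated here as immunoprecipitations. An untagged or mock immunoprecipitation was not analysed here. The files hold no read counts, so the sequencing depth is unknown.

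In ChIP-seq, DNA bound by a tagged protein is pulled down and sequenced, and a peak caller reports places where fragments pile up above a control. The IDR step compares how the replicates rank the same calls, so its input lists are deliberately long and hold background calls as well as peaks. In these data the list it gave is the pooled calls of highest signal, so members differ from IDR peaks by signal rank. A call within 250 bp was present in every replicate list for 97.6% of IDR peaks, and so not for each of them. Calls directly under the limit are the ones whose membership depends most on where the limit is placed. No call is counted as a bound site on its own.

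The sequences at 11 summits are printed to show the kinds of DNA that the results below turn on. Each is 61 bp centred on the pooled summit, on the plus strand of dm6, read from the RefSeq genome, with any of 12 searched motifs in capitals. Sequences are not printed from every chromosome arm, whereas A+T and motifs were taken on all of them. Each of the first 4 holds a DRE, a GAGA element, a Motif 1 element or a CA repeat inside the window. Each is the highest-signal such member on the arms printed from, and they were chosen after the motif results were seen. They lie at chrX:8206003-8206063 in an intron of sdt, which encodes a scaffold of the Crumbs polarity complex, at chr2L:19548422-19548482 near the start of Tep4, a thioester-containing protein gene, at chr3R:21853719-21853779 in an intron of glec, and at chrX:2094468-2094528 near the start of csw, a tyrosine phosphatase gene of receptor signalling.
DRE, intron of sdt: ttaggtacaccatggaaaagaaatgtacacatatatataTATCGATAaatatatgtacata
GAGA element, Tep4: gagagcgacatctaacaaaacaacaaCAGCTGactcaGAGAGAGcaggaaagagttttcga
Motif 1, intron of glec: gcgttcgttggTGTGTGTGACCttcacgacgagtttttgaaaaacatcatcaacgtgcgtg
CA repeat, csw: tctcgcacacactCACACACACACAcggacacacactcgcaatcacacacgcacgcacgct

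A second set of 3 shows members with a call within 250 bp in only 1 replicate list, here replicate 2. They lie at chr3L:14635318-14635378 in an intron of dlp, a glypican gene, at chr3R:21339234-21339294 in an intron of aus, and at chr3L:19016672-19016732 in an intron of nkd, a feedback inhibitor of Wingless signalling. Their 61 bp were 73.8%, 78.7% and 82.0% A+T. Other calls lay past the 250 bp limit. The nearest in replicates 1 and 3 were 281 and 509 bp away for dlp, 474 and 801 bp for aus, and 756 and 317 bp for nkd. For dlp the replicate 2 call, 106 bp away, lay nearer to another pooled summit.
Intron of dlp: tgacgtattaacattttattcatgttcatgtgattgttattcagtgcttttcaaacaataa
Intron of aus: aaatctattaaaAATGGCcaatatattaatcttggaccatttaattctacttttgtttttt
Intron of nkd: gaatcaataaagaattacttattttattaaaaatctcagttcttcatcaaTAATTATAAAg

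The last 4 begin with 2 members that have a high-ranked call within 250 bp in every replicate list. They lie at chr3R:26021564-26021624 near E(spl)m3-HLH and at chr3R:5669585-5669645 near Atg17. For Atg17 in all 3 lists, and for E(spl)m3-HLH in replicates 1 and 3, that call lay nearer to another pooled summit. The other 2 are far from any start site, at chrX:18991360-18991420 in an intron of CG43759 and at chr3R:31882796-31882856 in an intron of heph. All 4 show more mixed base composition, between 41.0% and 57.4% A+T.
E(spl)m3-HLH: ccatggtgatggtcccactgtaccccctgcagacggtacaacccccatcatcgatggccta
Atg17: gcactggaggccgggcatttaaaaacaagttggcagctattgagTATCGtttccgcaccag
Intron of CG43759: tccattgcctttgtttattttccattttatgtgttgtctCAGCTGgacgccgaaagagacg
Intron of heph: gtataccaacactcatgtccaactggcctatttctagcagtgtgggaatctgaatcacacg

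Signal differed little across the limit that defines these calls, which neighbouring ranks of a long list sorted by that value can be foreseen to show. The 3 members just inside it had signal values of 159.625, 159.613 and 159.598, and the 3 IDR peaks just outside it had 159.761, 159.72 and 159.652. At the lower edge the last 3 members had 96.6826, 96.6786 and 96.6727, against 96.6609, 96.638 and 96.6299 for the next 3 calls. The signal is the authors' own value with no stated normalization, and it is used here only to rank and describe calls within a list. Member signal had a median of 119.72, against 256.45 for IDR peaks, an order that the sort itself sets. The authors' −log10 q value ran between 1.505 and 3.122 over the members, and 445 members had a value at or above the lowest in the IDR list, 3.07.

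The 3 members at the upper edge lay 71 bp downstream of the start of CG9171, 374 bp downstream of the start of CG5151 and in an intron of CG10737. They had ranks of 2612, 9241 and 6367, of 2881, 4596 and 4376, and of 4244, 2534 and 14228 in replicates 1, 2 and 3. All 3 thus had a call in each replicate. The last IDR peak, 120 bp upstream of TM9SF2, was ranked 9434 in replicate 1 and 6022 in replicate 3 and had no call in replicate 2. At the lower edge, the call near Egfrap, at rank 8372, was ranked 25297 and 8001 in replicates 1 and 2 and had no call in replicate 3. The last member, 81 bp downstream of the start of pirk, a negative regulator of immune signalling, was ranked 12450, 20525 and 7641.

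Most members had a call in every replicate, but usually a lower-ranked one. A call within 250 bp of the member's summit was present in all 3 replicate lists for 3534 members, or 84.4% of them (exact Clopper-Pearson 95% interval 83.3 to 85.5%, which like the other intervals here covers counting error only), against 42.9% of all 30000 pooled calls. A further 630 had a call in 2 lists and 23 in 1 list. The share in all 3 lists was 97.6% for IDR peaks, 84.4% for members and 59.9% for the next ranks. The pooled list was made from the same replicates, so this support is not independent of the choice of members and was not tested. Between 10.1% and 10.6% of the genome lay within 250 bp of a call of each replicate list. With each replicate call given only to its nearest pooled summit, 73.6% of members kept a call in all 3, and with a limit of 100 bp, 58.0% did.

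**Figure D1:**
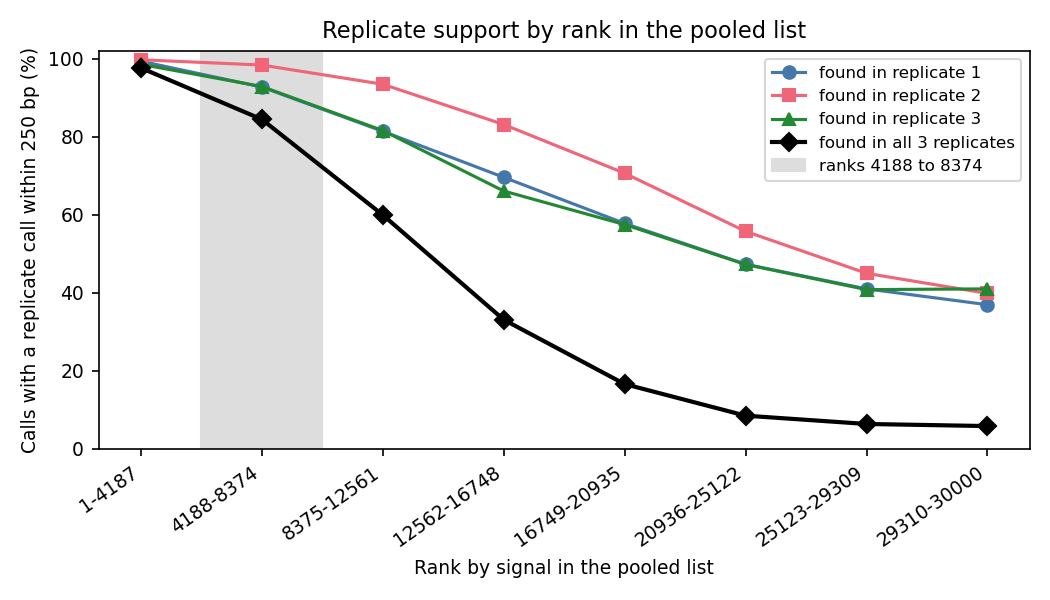
Share of pooled calls (%, y axis) with a call within 250 bp in each replicate list and in all 3, for successive rank bands of the pooled list (x axis, highest signal at the left). The share in all 3 was 97.6% in the IDR band, 84.4% in the shaded band described here and 59.9% in the next.

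Support was not equal between replicates. Replicate 1 held a call for 3881 members (92.7%), replicate 2 for 4117 (98.3%) and replicate 3 for 3887 (92.8%), a mean of 94.6 ± 3.22% (SD, n = 3). The member's median rank was 7319 in replicate 1, 6648 in replicate 2 and 6803 in replicate 3. As an equal measure for each list, its calls were cut into rank bands of the size of the IDR list. Only 13 members stood in the first band of all 3 replicate lists, and 10 of these 13 lay within 250 bp of an IDR summit. In contrast, 766 members (18.3%) stood in the first or second band of all 3, and 159 did so in none. Members were chosen below the first band of a list pooled from these replicates, so few in the first band of every list can be foreseen. The same counts are not given here for other calls. IDR peaks had median ranks of 2191.5, 2093.5 and 2077 in replicates 1, 2 and 3.

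Base composition went with which replicate held the call. Members missing in replicate 1 averaged 66.1% A+T within 50 bp of the summit, against 60.5% for members found there. For replicate 2 the order was the opposite, with 57.2% in members missing and 60.97% in members found. Replicate 3 showed 60.0% in members missing and 60.98% in members found. In the 1470 members of lowest A+T the median rank was 5764 in replicate 1, 7570.5 in replicate 2 and 6725 in replicate 3. In the 1294 members of highest A+T it was 9838, 5545 and 6899. Replicate 1 thus ranked A+T-rich members lower and replicate 2 ranked them higher, while replicate 3 ranked both about alike. The part of sequencing depth or library preparation in this was not tested.

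**Figure D2:**
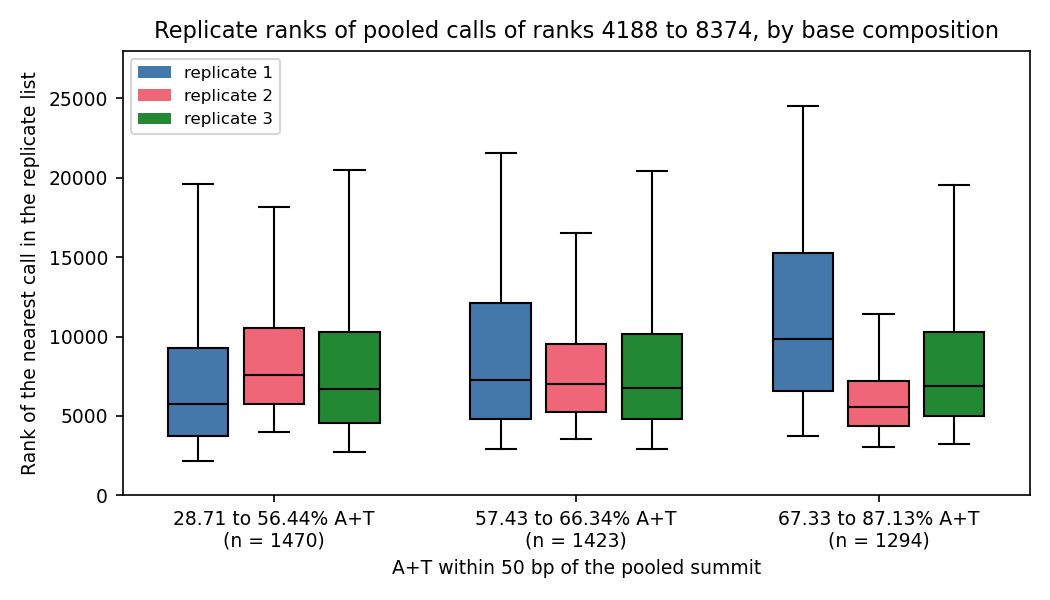
Rank of the nearest replicate call within 250 bp (y axis, small numbers are high ranks) for members in 3 groups of A+T within 50 bp of the summit (x axis), in replicates 1, 2 and 3. Lines inside boxes are medians, boxes quartiles and whiskers the 5th and 95th percentiles over members with a call. The median in replicate 1 is 5764 in the lowest group and 9838 in the highest, and in replicate 2 it is 7570.5 and 5545.

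The 20 members found only in replicate 2 include the 5 best-ranked of the members called in 1 list only, at replicate 2 ranks 2119, 2526, 2796, 2862 and 3046. They lie in introns of dlp, aus, nkd and mew, an integrin alpha subunit gene, and 171 bp upstream of CG16700. The 285 members in replicates 2 and 3 only had a mean of 66.0% A+T and were at a start site in 29.1% of cases. The 278 in replicates 1 and 2 only had 59.4% A+T and were at a start site in 57.9% of cases. Only 67 were in replicates 1 and 3 alone.

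A small set of members lay at a fixed distance from a stronger peak. Of the members, 202 (4.82%) had an IDR summit within 250 bp, and 150 of them lay 199 to 210 bp from it, whereas 26 members lay farther than 250 bp and up to 500 bp away. Within 1000 bp of an IDR summit were 625 members (14.9%, interval 13.9 to 16.0%), against 527 (12.6%, interval 11.6 to 13.6%) of the next ranks. These side calls also took 8 of the 10 places among the members whose lowest rank over the 3 lists was best. The call 229 bp upstream of E(spl)m3-HLH, a basic helix-loop-helix repressor that Notch signalling activates, was ranked 1529, 1746 and 1654 in replicates 1, 2 and 3 and lay 200 bp from an IDR summit. Calls near ckn, Atg17, lace, which encodes an enzyme subunit of sphingolipid synthesis, the transporter gene Orct, the proton-pump gene Vha16-1 and RpL37A lay 199 to 207 bp from one. For the ckn and Atg17 calls, all 3 replicate calls lay nearer to another pooled summit. For the E(spl)m3-HLH, lace, Orct, Vha16-1 and RpL37A calls, those of replicates 1 and 3 did, so these ranks may belong to the neighbouring peak. The summit 31 bp upstream of CG42496, beside Tim10, a mitochondrial import gene, was ranked 3783, 3428 and 3966 and lay 9529 bp from the nearest IDR summit.

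**Figure D3:**
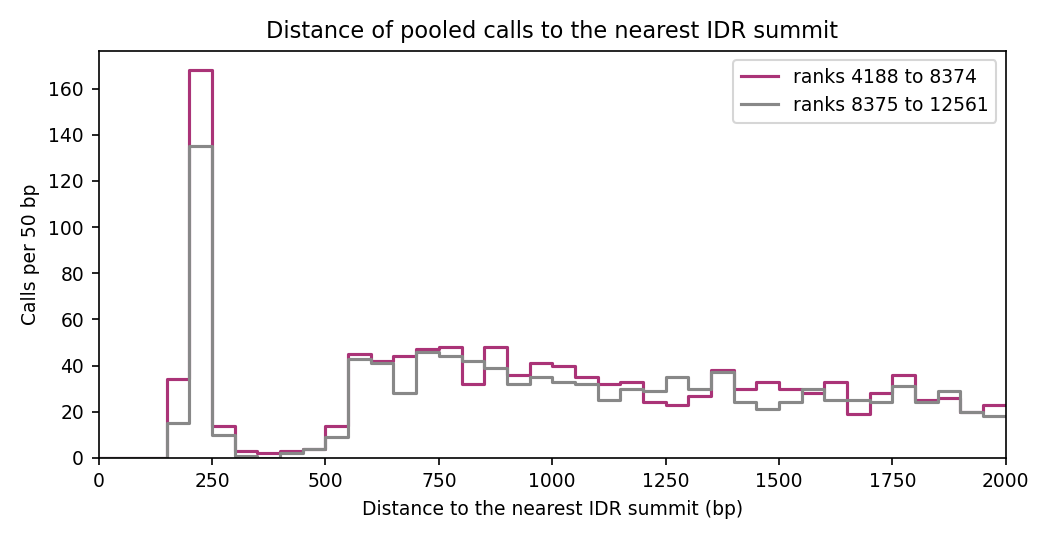
Number of calls per 50 bp (y axis) by distance to the nearest IDR summit (x axis, bp), for members and the next ranks. Both show a narrow peak between 150 and 250 bp, where 202 members lie, and few calls between 250 and 500 bp.

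Members lay less often at start sites than IDR peaks and more often than the next ranks. A summit within 500 bp of an annotated transcription start site (TSS) was present for 1573 members (37.6%, interval 36.1 to 39.1%), against 1813 IDR peaks (43.3%). The difference was -5.73 percentage points (two-sided Fisher's exact test, adjusted p = 7.1e-07 with Benjamini-Hochberg adjustment over 7 annotation classes), and -2.72 percentage points with a TSS window of 250 bp. Against the 1340 of the next ranks (32.0%), members were 5.57 percentage points higher (Fisher's exact test, adjusted p = 7.1e-07). Summits are not independent samples of embryos, so here and below the first 2 rank bands of each replicate's own list were also compared. These bands are not the same calls as the members and IDR peaks. The first band of replicates 1, 2 and 3 held 18.6%, 12.9% and 16.4% of members. The first 2 bands together held 53.5%, 67.7% and 58.9% of them. In the replicate lists the second rank band held 39.7%, 39.9% and 35.6% at a TSS in replicates 1, 2 and 3, against 45.5%, 42.8% and 42.5% in the first band. The mean difference was -5.20 ± 2.10 percentage points (SD, n = 3), lower in 3 of 3 lists, and the exact two-sided sign-flip test gave p = 0.25, the smallest it can give.

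Away from start sites, introns held 1790 members (42.8%), against 1664 IDR peaks (39.7%; adjusted p = 0.013 by Fisher's exact test). Coding exons held 29 members (0.693%), against 9 IDR peaks (0.215%; Fisher's exact test, adjusted p = 0.0057). In replicates 1, 2 and 3, introns held 40.55%, 41.25% and 41.46% of the second rank band, against 38.43%, 39.81% and 40.55% of the first. Coding exons held 0.955%, 0.454% and 1.03%, against 0.406%, 0.167% and 0.287%. Intergenic DNA held 657 members (15.7%), against 589 IDR peaks (14.1%), a difference that did not pass the threshold of 0.05 (Fisher's exact test, adjusted p = 0.064). It passed for members more than 1000 bp from an IDR summit (2.36 percentage points, exact test, adjusted p = 0.0098) and for members in all 3 lists (2.12 percentage points, exact test, adjusted p = 0.017). With a TSS window of 250 bp the intron difference was 0.979 percentage points and no longer passed, and with a window of 1000 bp the coding-exon difference was 0.215 percentage points and no longer passed. Among the higher-signal members neither passed, at 1.44 percentage points for introns and 0.215 for coding exons. Among members in coding exons, 26 of 29 had a call in all 3 replicates, and their mean A+T was 48.7%. By chromosome, members ranged between 13.4 per Mb on chromosome 4 and 33.3 per Mb on 3L, with none on Y, and no chromosome's share differed from that of IDR peaks past the threshold (lowest adjusted p = 0.27, Fisher's exact test).

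Member summits at promoters lay nearer the start itself than IDR summits did, and in the 4 comparisons here p was not adjusted. Their median position was 50 bp upstream, against 109 bp upstream for IDR peaks. Upstream of the TSS were 63.2% of members, against 74.5% of IDR peaks (Fisher's exact p = 1.1e-12), and within 50 bp of it were 24.3% of members, against 17.6% of IDR peaks (Fisher's exact p = 1.5e-06). Against the next ranks, 63.2% of members were upstream and 59.1% of those calls (Fisher's exact p = 0.027). Within 50 bp of the TSS, 24.3% of members and 23.7% of the next ranks did not differ past the threshold (Fisher's exact p = 0.73). These 4 tests count summits of the pooled list, which are not independent samples. Summit position was not compared within the replicate lists.

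**Figure D4:**
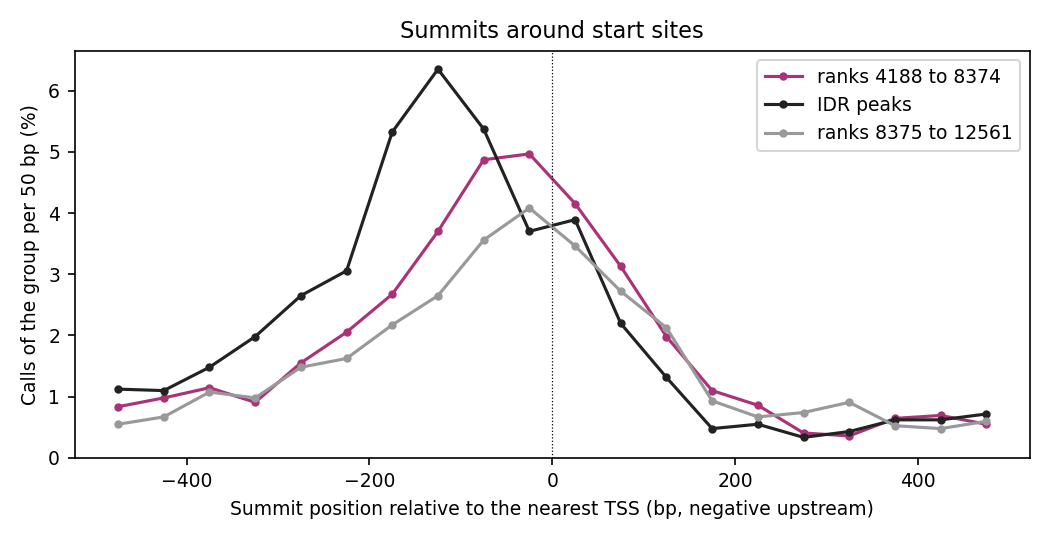
Share of each group's calls per 50 bp (y axis, %) by position of the summit relative to the nearest TSS (x axis, bp, negative upstream). The median member summit lies 50 bp upstream, against 109 bp upstream for IDR peaks and 38 bp upstream for the next ranks.

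Members were less A+T-rich than IDR peaks. They averaged 60.9 ± 9.95% A+T, against 64.9 ± 9.36% for IDR peaks and 59.6 ± 9.71% for the next ranks (mean ± SD over summits). At start sites the member mean was 58.1%, against 63.8% for IDR peaks. Within the replicate lists, the second rank band was 57.9%, 61.9% and 60.0% A+T in replicates 1, 2 and 3, against 60.96%, 66.6% and 63.9% in the first band. The mean difference was -3.86 ± 0.79 percentage points (SD, n = 3), lower in 3 of 3 lists (exact sign-flip p = 0.25, the smallest possible).

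Of 12 short motifs searched on both strands within 100 bp of the summit, 7 were more frequent at member summits than in windows of equal size centred 500 bp away, by exact McNemar tests with Benjamini-Hochberg adjustment. The DRE, TATCGATA, bound by the promoter factor DREF, was present at 2.29% of member summits, against 0.645% of flanks (exact test, adjusted p = 1.2e-09). Motif 1, GGTCACAC, a core promoter element, was present at 1.84%, against 0.645% (exact test, adjusted p = 1.0e-06). The GAGA element, GAGAGAG, bound by the GAGA factor, was present at 6.86%, against 3.65% of flanks (exact test, adjusted p = 4.1e-10), and the CA repeat, CACACACA, at 9.34%, against 6.28% (adjusted p = 3.8e-07). The TATA box core, the BEAF-type site CGATA, whose letters lie within the DRE, and the GATA site AGATAA also passed, and CGATA no longer did among the higher-signal members. GCCATT, a core of Polycomb response elements bound by Pho, fell to 9.74% at member summits, against 13.3% in flanks (exact test, adjusted p = 1.0e-06). AAAAAAAA stood at 11.1%, against 13.0% in flanks (exact test, adjusted p = 0.010). The Zelda site CAGGTAG, the homeodomain core TAATTA and the helix-loop-helix site CAGCTG did not pass (exact test, adjusted p = 0.30, 0.59 and 0.71).

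The DRE and Motif 1 sat mainly at promoters: the DRE was present at 5.15% of members at a TSS and at 0.574% of members elsewhere, and Motif 1 at 4.005% and 0.536%. Over all protein-coding TSS windows of the same length they were present at 6.44% and 5.68%. The GAGA element was present at 9.22% of members at a TSS, against 4.69% of all such windows, and the CA repeat at 10.4%, against 3.995%. Member windows are centred on summits within 500 bp of a TSS of any kind of gene, so these shares do not compare like with like. Over all 30000 pooled summits the DRE stood at 1.36%, Motif 1 at 1.11%, the GAGA element at 4.77% and the CA repeat at 7.97%. These matches describe the letters in a window and not bound sites.

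Set against IDR summits, the motif with the lowest p was the CA repeat. It was present at 9.34% of member summits, against 5.42% of IDR summits (difference 3.92 percentage points, Fisher's exact test with adjustment over 12 motifs, adjusted p = 8.9e-11). The share at IDR summits was below that in their own flanks, 7.09%. At summits of the next ranks it was 9.12%, close to that of the members, and this difference was not tested. In the replicate lists the CA repeat was at 10.9%, 8.48% and 8.10% of the second rank band, against 8.10%, 4.73% and 5.97% of the first band, higher in 3 of 3 lists (exact sign-flip p = 0.25, the smallest possible). Among summits of 55 to 65% A+T, an alternative added after seeing the data, the difference was 3.70 percentage points. The TATA box core, TATAAA, was present at 27.8% of member summits, against 33.6% of IDR summits (Fisher's exact test, adjusted p = 6.7e-08), and TAATTA at 13.3%, against 15.9% (adjusted p = 0.0026). The GAGA element was at 6.86%, against 5.14% (Fisher's exact test, adjusted p = 0.0032). The TATAAA and GAGA differences were smaller among summits of 55 to 65% A+T, at -0.455 percentage points for TATAAA and -0.485 for the GAGA element, whose sign turned, and neither passed there (Fisher's exact p = 0.82 and 0.60). The GAGA difference was also not one-directional in the replicate lists, at -0.0717, 1.77 and 1.08 percentage points.

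**Figure D5:**
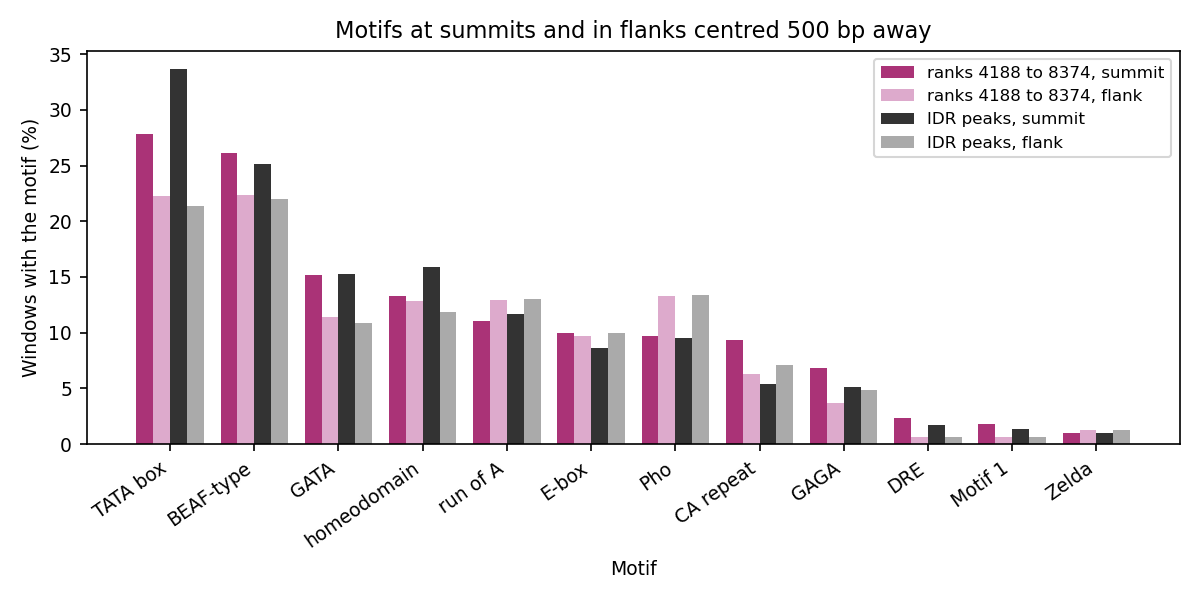
Share of windows with each motif (y axis, %) at member summits and member flanks and at IDR summits and IDR flanks, for the 12 motifs (x axis). The CA repeat is at 9.34% of member summits and 5.42% of IDR summits, and the TATA box core at 27.8% of member summits and 33.6% of IDR summits.

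By gene, 1662 of 13968 protein-coding genes (11.9%) had a member within 500 bp of a TSS, and 1365 of them, 9.77% of protein-coding genes, had no IDR summit there. Over genes of every kind, 1579 of 18277 had a member and no IDR summit, or 8.64%. An IDR summit was present for 14.3% of protein-coding genes, and a member or an IDR summit for 24.1%. The share differed with the number of start sites: 7.14% of genes with 1 distinct TSS had a member and no IDR summit, 15.04% of those with 2, 22.5% of those with 3 or 4 and 17.9% of those with 5 or more. The lists below are given as counts beside 9.77% and were not tested. Where a summit lies near several starts, it counts for each gene.

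Among ecdysone receptor and response genes, which carry the steroid hormone signal, 7 of 16 had a member and no IDR summit (43.8%, interval 19.8 to 70.1%), and 2 had an IDR summit. These genes had a median of 2 distinct start sites, against 1 over all protein-coding genes. EcR, the ecdysone receptor, had a summit 269 bp upstream of a TSS with signal 128.77 and replicate ranks 7326, 3431 and 11989. Eip78C, an orphan nuclear receptor gene, had one 42 bp downstream with ranks 7259, 7291 and 4137. Eip74EF, an Ets-family factor, had one 155 bp upstream with ranks 9766, 5030 and 3205, and Hr3, a nuclear receptor gene, one 133 bp upstream with ranks 3478, 6239 and 7452. All 4 had a call in every replicate.

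Among genes of neural fate, 6 of 19 had a member and no IDR summit (31.6%, interval 12.6 to 56.6%), and 3 had an IDR summit. Dr, a homeobox gene of the dorsal neural columns, had a summit 122 bp upstream with replicate ranks 2563, 9782 and 3587. vnd, its ventral counterpart, had one 67 bp upstream with ranks 4549, 6102 and 7474. pros, which steers neural precursors to differentiate, had one 30 bp downstream with ranks 9331, 8568 and 3329. dpn, a neuroblast repressor, had one 70 bp upstream with ranks 1926, 19837 and 21536, high in replicate 1 and low in the others.

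Notch pathway genes had 5 of 21 (23.8%, interval 8.22 to 47.2%) with a member alone, and 6 with an IDR summit. N, the receptor, had a summit 364 bp upstream with replicate ranks 8038, 3577 and 6371, and kuz, the protease that cleaves it, one 64 bp downstream with ranks 7667, 6718 and 5115. mam, the co-activator, was called in replicates 2 and 3, and mib1, a ligase acting on Notch ligands, in replicates 1 and 2. Wingless pathway genes had 4 of 21 (19.0%, interval 5.45 to 41.9%) and 7 with an IDR summit. fz2, a Wingless receptor, had a summit 28 bp downstream with ranks 4792, 4867 and 9955, and lgs, a nuclear partner of Armadillo, one 119 bp upstream with ranks 4968, 13555 and 4591. pan, the TCF factor of the pathway, was called only in replicate 2, and the ligand gene Wnt5 in replicates 1 and 2.

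Mesoderm and muscle genes had 4 of 19 (21.1%, interval 6.05 to 45.6%). Mef2, the muscle differentiation factor, had a summit 61 bp downstream with replicate ranks 9920, 4158 and 15630, and sns, a receptor of myoblast fusion, one 89 bp upstream with ranks 3372, 4759 and 18568. zfh1 and lbe, 2 homeodomain regulators, also had one in all 3 replicates. Segmentation genes had 3 of 22, cad, en and Kr. Of the 3, en, which marks posterior compartments, had no call in replicate 2. Of the 8 Hox genes, Dfd alone had a member, 228 bp upstream, in replicates 1 and 3 only, and none had an IDR summit.

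Of 92 genes named as cytosolic ribosomal proteins, 69 had an IDR summit, and 9 (9.78%) had a member alone, among them RpL10, RpL5, RpS24 and RpS13. The 9.78% was close to the 9.77% of all protein-coding genes. Those 9 are 39.1% of the 23 ribosomal protein genes without an IDR summit, against 11.4% of the 11972 protein-coding genes without one. A high share on this second count was not particular to ribosomal protein genes. On it, neural fate genes stood at 37.5% and Notch pathway genes at 33.3%. Proteasome subunit genes, at 8.70%, and translation factor genes, at 5.26%, lay below 11.4%. Mitochondrial ribosomal protein genes had 8 of 73 (11.0%), aminoacyl-tRNA synthetase genes 4 of 32 (12.5%) and proteasome subunit genes 4 of 48 (8.33%). Rpn5, of the proteasome lid, had a summit 294 bp upstream of a TSS with replicate ranks 4345, 7330 and 2942. Translation factor genes had 2 of 52 (3.85%), eIF2A and eIF4G2. Polycomb and trithorax group genes had 3 of 27 (11.1%), mor, trr and Su(z)12, and the trr summit is the same as that of mRpL16. Insulator protein genes had 1 of 21, row, and the 6 GATA factor genes with their cofactor ush had none, while 4 of the 6 had an IDR summit.

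Of 96 cuticle protein genes, and of 111 replication-dependent histone genes, none had a member, with an upper limit of 3.77% and 3.27% from the exact interval. IDR summits were as rare there, at 1 of the cuticle protein genes and none of the histone genes. Histone genes are near-identical copies, and whether the authors' read mapping bears on the histone counts was not tested. Chemoreceptor and odorant-binding protein genes had 2 of 230 (0.870%), Obp83g and Ir60e, and cytochrome P450 genes 4 of 83 (4.82%). Among small RNA genes, read against 8.64%, tRNA genes had 26 of 290 (8.97%), small nucleolar RNA genes 17 of 274 (6.20%) and microRNA genes 12 of 260 (4.62%). mir-14 and mir-ban, both of them regulators of cell death, had a summit 189 bp upstream and 383 bp downstream, each in all 3 replicates. Some of these share a summit with a neighbour, as snoRNA:Me18S-C1096 does with RpL3, 201 bp from an IDR summit.

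Some genes held several members in their body away from start sites. Of 18277 genes, 63 had 5 or more there, and the 10 genes with the most are named here, chosen after their counts were seen. Long genes have room for more members. In these 10 the density ran between 0.0431 members per kb in kirre and 0.197 in ftz-f1. Over whole chromosomes, start sites included, it was 29.6 members per Mb on X and 33.3 per Mb on 3L. Whether any gene held more members than its length would give was not tested. The gene kirre, which encodes an immunoglobulin-family receptor of myoblast fusion and spans 394.1 kb, had 17, all in all 3 replicate lists, beside 9 IDR summits. rdx, an adaptor that targets the Hedgehog effector Ci for degradation, had 12 beside 5 IDR summits over 65 kb, and fz2 had 11 beside 1 IDR summit. bun, a TSC22-family gene, and ftz-f1, a nuclear receptor gene of 50.7 kb, had 10 each, and sbb had 10 beside 12 IDR summits. Eip75B, a nuclear receptor gene induced by ecdysone, hth, a Hox cofactor gene, and the zinc-finger genes jing and shn had 9 each. The members farthest from any TSS among those in all 3 lists lay 59052 bp away, in the intron of CG43759, and 52344 bp away, in an intron of heph, a polypyrimidine tract-binding protein gene.

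The tagged gene itself, CG12219, at chrX:6299054-6301285 on the minus strand, held no member. The pooled summit nearest its TSS lay 3344 bp away and was a member, of rank 7577.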

How the data were processed

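Each replicate has 1 peak list and the series a pooled list and an IDR list, in dm6 per the labels. Replicate lists were called on each replicate and the pooled list on all 3 together, against a control, per the notes deposited beside each list. The signal and the −log10 q value of each call are as the authors deposited them, and the summit offset likewise. Which tools aligned the reads and called peaks, and which IDR limit was set, is not given in the sources used here.

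Calls were ranked by signal, ties by −log10 q. The 4187 members are ranks 4188 to 8374 of 30000, the IDR peaks ranks 1 to 4187, and the next ranks 8375 to 12561. Members were matched to replicate summits within 250 bp. Genes and start sites are those of Ensembl release 115, and sequence was read from the RefSeq genome, whose chromosome lengths are those of dm6. Each summit got 1 of 7 classes, a TSS within 500 bp going before exon classes and these before introns and intergenic DNA. Shares were compared with two-sided Fisher's exact tests, motifs at summits and flanks with exact McNemar tests, and replicate lists with an exact sign-flip test, at a threshold of 0.05 after Benjamini-Hochberg adjustment (Python 3.11.15, scipy 1.17.1, statsmodels 0.14.6). The scripts were tested on simulated data. The 3 replicates are biological per the labels. That they came from separate collections is not stated, so the spread between these samples may be technical. The sign-flip p over 3 replicates is 0.25 whenever all 3 differences share a sign, so it does not measure that spread.

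Named regions were the 3 calls on each side of each edge, the 10 members with the best worst replicate rank, the 5 best in 1 list only, the 5 farthest from a TSS, and per gene list up to 4 genes with a member and no IDR summit. The members, lists and motifs were chosen with earlier results of these data known. List symbols were matched by symbol or older symbol, and 4 were not matched. Other match windows, TSS windows, flanks and subsets, and leaving out each replicate, were tried.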

Additional observations from a re-analysis of the deposited data

How the results depend on the processing

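Over 80 alternatives, 58 kept direction and side of the threshold or moved within the set tolerance. These 58 include the TSS and A+T differences by replicate. There the sign-flip p could not fall below 0.25, so only the direction could change. The TSS share of members, lower than in IDR peaks and higher than in the next ranks, kept both calls in every alternative run, with a difference from IDR peaks of -2.72 percentage points at a TSS window of 250 bp. The share of members in all 3 replicate lists was 58.0% with a limit of 100 bp, 89.4% with 500 bp, 73.6% with each replicate call given to its nearest pooled summit only, 87.7% by interval overlap and 89.6% among the 2093 higher-signal members. With 1 replicate left out it was 86.0 to 91.2%. Leaving out 1 replicate, the difference in TSS share by replicate was -6.37 to -4.34 percentage points and that in A+T -4.26 to -3.47. The coding-exon difference no longer passed with a TSS window of 1000 bp (0.215 percentage points) or among the higher-signal members (0.215). The intron difference no longer passed with a window of 250 bp (0.979) or among the higher-signal members (1.44). The intergenic difference passed for members more than 1000 bp from an IDR summit (2.36) and for members in all 3 lists (2.12). Members near an IDR summit were 5.45% within 500 bp and 28.9% within 2000 bp. Protein-coding genes with a member were 9.13% at a window of 250 bp, 15.4% at 1000 bp, 16.9% by nearest gene, 6.536% with the higher-signal members and 9.70% with members in all 3 lists. Alternatives chosen after seeing the data were the TSS share against next ranks for calls in all 3 lists, and those for the CA repeat, GAGA and TATAAA differences; among summits of 55 to 65% A+T the GAGA difference was -0.485 and the TATAAA difference -0.455, and the CA repeat kept its call in all 6. The cause was not tested. Of the 7 motifs above their flanks, CGATA was lost among the higher-signal members. Unknown depth limits all values.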
